A study of Mus musculus with 8 samples.

Results

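The 9 genes described here are the Gadd45 family (Gadd45a, Gadd45b, Gadd45g), 3 class IIa histone deacetylases (Hdac4, Hdac5, Hdac9), the transcription factors Dach2 and Runx1, and the adhesion molecule Ncam1. They were chosen by name, with earlier results of these data known. All probes that the platform annotation assigns to these symbols were taken, which gave 15 probes of 25697, or 9 genes of 16593 with a symbol. Their mRNAs were measured with Illumina bead arrays in the tibialis anterior, a muscle at the front of the shin. The mice were C57BL/6 males, 8 weeks old, and each muscle was taken 7 days after it had been transfected. The control group had received a control plasmid and the p21 group a plasmid for p21, the cyclin-dependent kinase inhibitor that Cdkn1a encodes. Every muscle of either group had thus been transfected, and untransfected muscle was not analysed here. There were 4 arrays per group, named control replicates 1 to 4 and p21 replicates 1 to 4. Per the labels, tibialis anterior muscles of both legs were dissected. Which arrays stem from one animal is not stated, so a p-value covers the spread among these samples alone, and that spread may be technical.

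Muscle that loses contact with its nerve changes its gene expression through a known chain. In mouse muscle, Hdac4 accumulates in nuclei after denervation and represses Dach2, itself a repressor of the myogenic factor gene Myog. Myogenin then raises acetylcholine receptor subunits and other genes of denervated muscle. Hdac4 is also required there for the induction of Gadd45a, whose forced expression in mouse muscle shrinks fibers. Runx1 and Ncam1 are likewise induced by denervation, and Ncam1 protein, kept near the synapse in innervated fibers, then spreads along the fiber surface. The comparison asks how these genes stood in muscles given p21 itself.

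Values are log2 intensities. Every array ranged from 8.13, the floor of the table, to 15.27 with a median of 8.39, since the arrays had been brought to one distribution. Changes are p21 minus control with their SE, and adjusted p-values come from limma with Benjamini-Hochberg adjustment over all 25697 probes, with 0.05 as the threshold. Cdkn1a itself was higher in all p21 muscles on each of its 3 probes, and the brightest read 9.83 to 10.27 in controls and 11.25 to 11.72 in p21 muscles. The labelled tissue had its markers, with 11 fiber genes such as Acta1 and Ckm averaging 14.76 to 14.79 in controls and 14.59 to 14.73 in p21 muscles. Of these 11, 9 had a negative change and 1 passed, Myh4 at −0.44 ± 0.11 (adjusted p = 0.033 in limma). Of 16 macrophage markers 11 rose, and their summed intensity above the floor was 21086 to 39315 in controls and 59251 to 110418 in p21 muscles. Of 10 endothelial markers 4 fell, with sums of 9985 to 12084 and 7496 to 8636. In whole muscle, fewer cells of a type and less RNA per cell cannot be told apart.

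Of the 9 genes, Ncam1 rose 2.35-fold and Runx1 1.20-fold, and Hdac4 fell 1.22-fold. No probe of Gadd45a, Gadd45b, Gadd45g, Hdac5, Hdac9 or Dach2 passed the threshold. Of the 15 probes, 3 passed (20%), against 8.03% of all probes, with 2 higher (3.68% of all probes) and 1 lower (4.35% of all probes). Of the 12 probes brighter than the median value, 3 passed (25.0%), against 15.8% of all such probes. The groups did not overlap in 6 of the 15 (40.0%), against 16.7% of all probes. At unadjusted p under 0.05 there were 10 of 15, against 22.6% of all probes. The median change over the 15 probes was −0.04, beside −0.004 over all probes, and the median size of change was 0.19 beside 0.04. Only the 15.8% leaves out the dim probes. It shares a cutoff with the 12 probes and is not matched to their levels. The other shares and sizes are set against all probes, many of them dim and near the floor, where changes are compressed. The 9 genes were chosen with earlier results of these data known, so these shares are a description and not a test of the set.

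**Figure D1:**
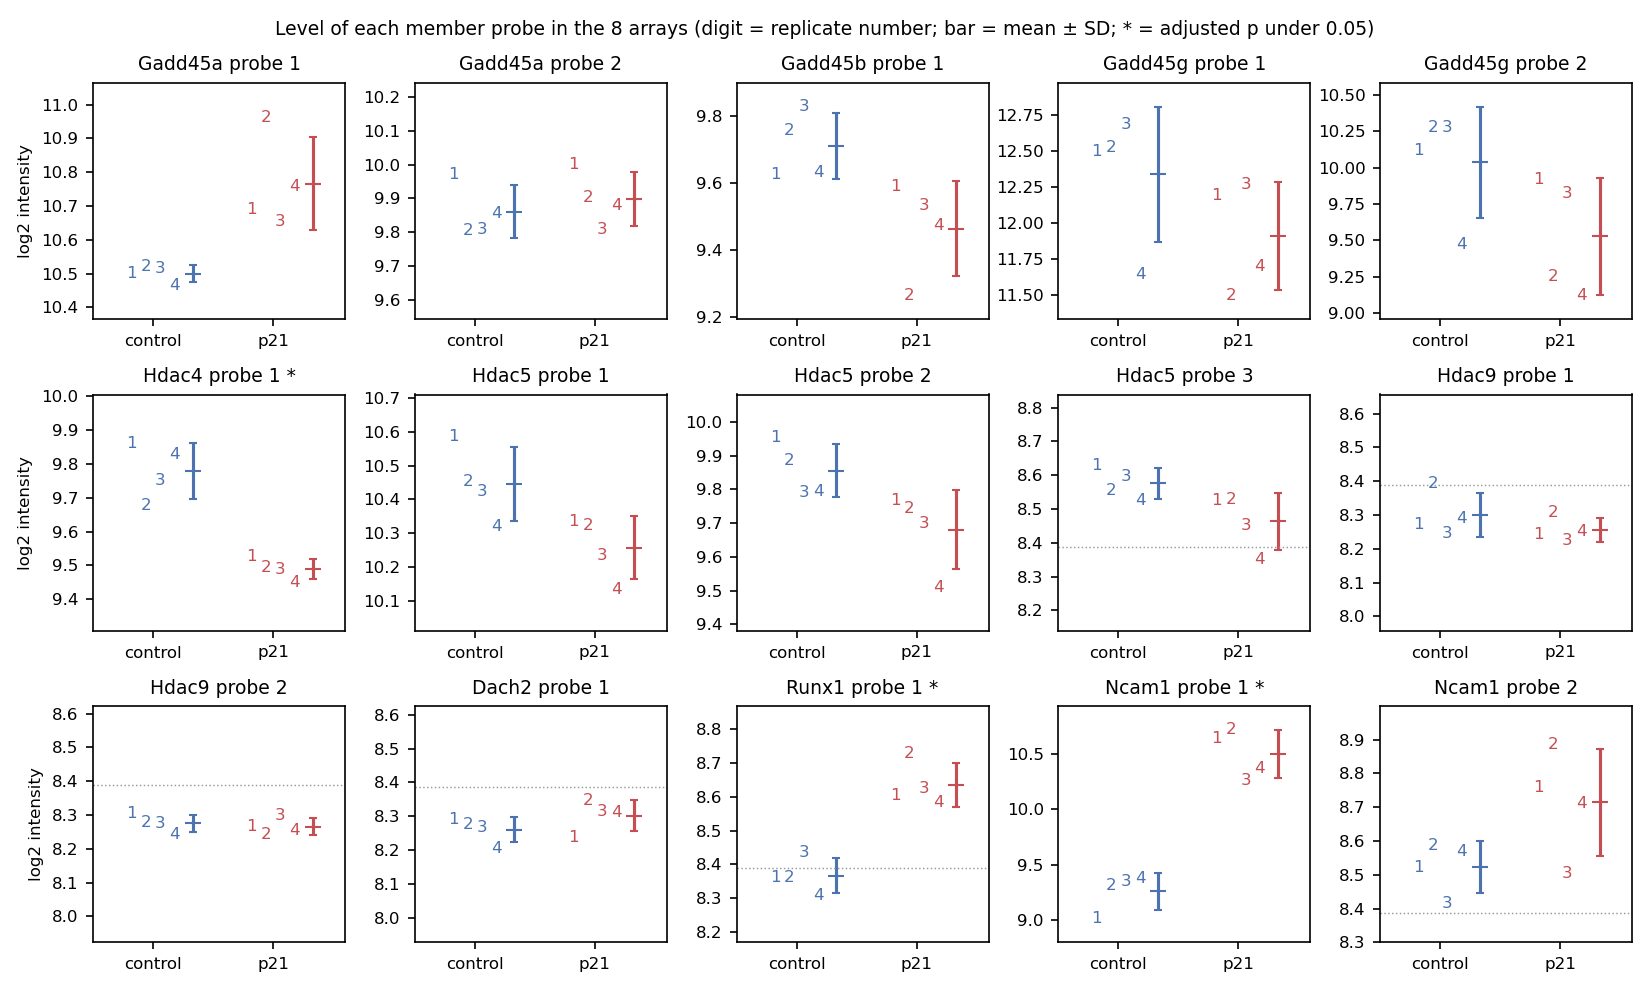
Log2 intensity of the 15 probes of the 9 genes in each of 4 control (blue) and 4 p21 (red) arrays, where digits are replicate numbers, bars are the mean ± SD, the dotted line is the median of all values (8.39) and an asterisk marks adjusted p under 0.05. The y axes differ between panels. The p21 arrays of the brighter Ncam1 probe sit at 10.26 to 10.72, all above the controls at 9.02 to 9.37, while the Hdac9 and Dach2 probes stay within 8.21 to 8.39.

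Gadd45a, the family member that responds to denervation, fasting and DNA damage, was read by 2 probes that did not give the same picture. Gadd45 proteins are small and acidic and bind partners such as MAP3K4, an activator of the p38 kinase pathway, PCNA and p21. The brighter Gadd45a probe (ILMN_2742152) read 10.50, 10.52, 10.51 and 10.47 in control replicates 1 to 4 and 10.69, 10.96, 10.65 and 10.76 in p21 replicates 1 to 4. The controls lay within a narrow band, and every p21 muscle lay above it, p21 replicate 2 the farthest. The change was 0.27 ± 0.08 (95% interval 0.08 to 0.45, or 1.20-fold), and it missed the threshold (adjusted p = 0.079). By exact permutation of the arrays (two-sided) p was 0.0286, unadjusted, the smallest that 4 against 4 arrays allow. With eBayes without an intensity trend (adjusted p = 0.043) or over bright probes alone (adjusted p = 0.039) the probe passed. The dimmer Gadd45a probe (ILMN_2947568) read 9.97, 9.80, 9.81 and 9.86 in controls and 10.00, 9.90, 9.81 and 9.88 in p21 muscles, so the groups overlapped. Its change was 0.04 ± 0.07 (95% interval −0.12 to 0.19, adjusted p = 0.83). The annotation assigns both probes to the same transcript, NM_007836. The difference between the probes' changes, 0.23 ± 0.09, gave exact permutation p = 0.0857 (0.200 after adjustment over the 7 such probe pairs).

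Gadd45b, which is known to respond to TGF-beta and inflammatory signals, had lower values in p21 muscles. Its probe read 9.62, 9.76, 9.83 and 9.63 in controls and 9.59, 9.26, 9.53 and 9.47 in p21 muscles. The groups did not overlap, but the highest p21 muscle and the lowest control lay close together. The change was −0.25 ± 0.08 (95% interval −0.43 to −0.06, adjusted p = 0.095, exact permutation p = 0.0286), and −0.38 with the floor subtracted.

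Gadd45g, known as a target of cytokine and developmental signals, varied most within groups. Its brighter probe read 12.50, 12.53, 12.69 and 11.65 in controls and 12.19, 11.50, 12.27 and 11.70 in p21 muscles. The second probe read 10.12, 10.28, 10.28 and 9.47 in controls and 9.92, 9.25, 9.82 and 9.12 in p21 muscles. On either probe control replicate 4 and p21 replicates 2 and 4 were the 3 lowest arrays, and the groups overlapped. The changes were −0.43 ± 0.23 (adjusted p = 0.31) and −0.51 ± 0.21 (adjusted p = 0.166). Without control replicate 4 they were −0.66 and −0.70 (adjusted p = 0.059 and 0.053), and without p21 replicate 2 −0.29 and −0.42 (adjusted p = 0.52 and 0.29). With the replicate number as a block, the second probe passed (−0.51 ± 0.12, adjusted p = 0.0196) and the brighter one did not (adjusted p = 0.092). The second probe was lower in the p21 array of all 4 replicate numbers, by 0.20 to 1.02, and the brighter one in 3 of 4.

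The Gadd45 genes were then set against each other within each array, which asks whether their changes were unequal and takes no account of absolute level. The difference Gadd45a minus Gadd45b was 0.79 ± 0.08 (SD, n = 4) in controls and 1.30 ± 0.28 in p21 muscles, with no overlap. The groups differed by 0.51 ± 0.14 (SE) with exact permutation p = 0.0286, or 0.171 after adjustment over the 6 pairs tested in both families. In Gadd45a minus Gadd45g the groups differed by 0.69 ± 0.34 (exact permutation p = 0.0857, adjusted 0.171). In Gadd45b minus Gadd45g they differed by 0.18 ± 0.24 (exact permutation p = 0.457). Leaving out 1 array moved Gadd45b minus Gadd45g to between 0.10 (without control replicate 1) and 0.38 (without control replicate 4). Paired by replicate number, Gadd45a minus Gadd45b and Gadd45a minus Gadd45g were positive in 4 of 4 numbers (exact sign-flip p = 0.125 for either, the smallest that 4 numbers allow), and Gadd45b minus Gadd45g in 3 of 4. For Gadd45a minus Gadd45b, whose groups did not overlap, any pairing of the arrays gives that count and that sign-flip p. No pair passed after adjustment, so unequal change within the family was not established with these arrays. The smallest p that the permutation test allows, 0.0286, became 0.171 after adjustment. A pair that alone reached it could not pass, so the adjusted test could not decide on Gadd45a minus Gadd45b.

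**Figure D2:**
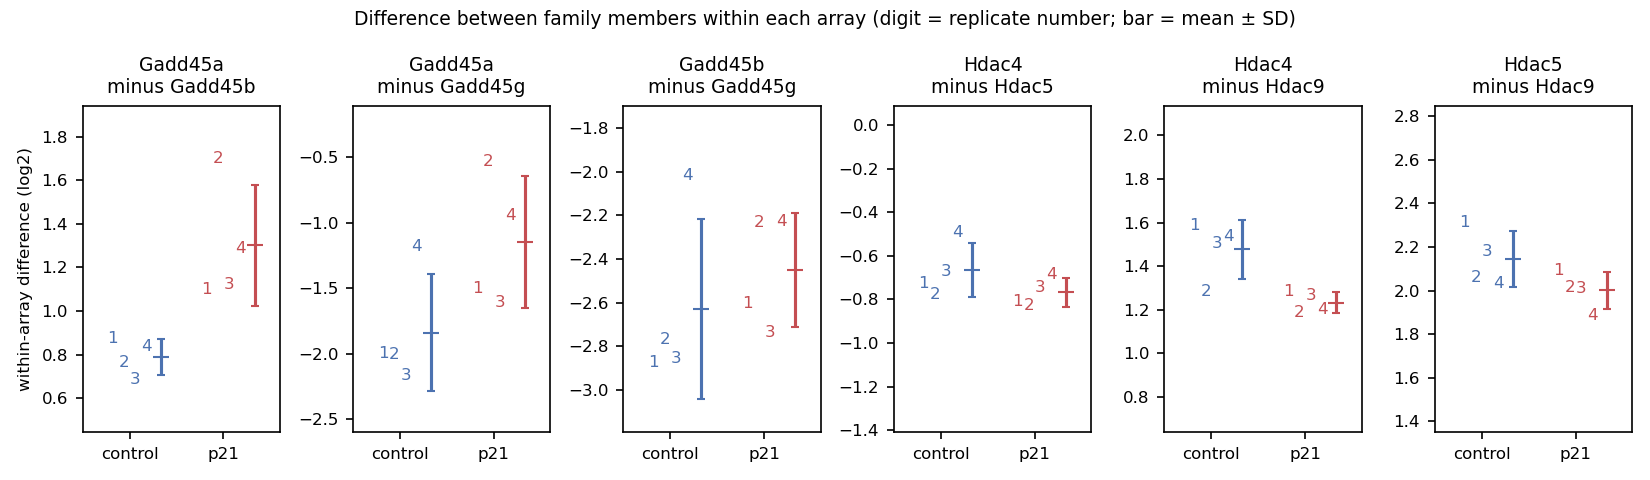
Within-array difference in log2 intensity (y axis) between the brightest probes of 2 genes of a family, for 4 control (blue) and 4 p21 (red) arrays, where digits are replicate numbers and bars are the mean ± SD. The groups are apart in Gadd45a minus Gadd45b, at 0.69 to 0.87 in controls and 1.10 to 1.70 in p21 muscles, and overlap in the other 5 pairs.

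Class IIa histone deacetylases have little catalytic activity of their own and act by binding MEF2 factors and recruiting corepressors, and kinases such as CaMKII send them out of the nucleus. An array reads their mRNA and not where the protein is. Hdac4, the member that drives the denervation response in mouse muscle, was lower in p21 muscles. Its single probe (ILMN_1219682) read 9.86, 9.68, 9.75 and 9.83 in controls and 9.52, 9.49, 9.49 and 9.45 in p21 muscles. The p21 values were tightly grouped and all lay below the lowest control. The fall was −0.29 ± 0.06 (95% interval −0.43 to −0.15, 1.22-fold lower, adjusted p = 0.024, exact permutation p = 0.0286). Leaving out control replicate 1, 2 or 4 ended that call (adjusted p = 0.076, 0.052 and 0.056), as did leaving out p21 replicate 4 (adjusted p = 0.087), while the change stayed between −0.32 and −0.26 with any 1 array left out. In the settings that ended the call, the calls over all probes fell as well, from 2064 to 379, 391, 1291 and 159. Without control replicate 3 they fell to 1032, and Hdac4 still passed, just under the threshold (adjusted p = 0.0497 in limma).

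Hdac5, a close relative of Hdac4, was read by 3 probes, and none passed. The brightest read 10.59, 10.45, 10.42 and 10.32 in controls and 10.33, 10.32, 10.23 and 10.13 in p21 muscles, and the groups touched at one end. The second read 9.95, 9.89, 9.79 and 9.79 in controls and 9.77, 9.74, 9.70 and 9.51 in p21 muscles, with no overlap (exact permutation p = 0.0286). The changes of the 3 probes were −0.19 ± 0.08, −0.18 ± 0.08 and −0.11 ± 0.05, with adjusted p of 0.207, 0.201 and 0.190. Each Hdac5 probe was lower in the p21 array of all 4 replicate numbers, and each 95% interval lay below 0 (upper ends −0.005, −0.007 and −0.007). For the second probe, whose groups did not overlap, any pairing of the arrays gives that count. The dimmest Hdac5 probe, annotated to another transcript (NM_001077696), lay near the floor, and with the floor subtracted its change was −0.42 (adjusted p = 0.184).

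Hdac9, whose mRNA is known to fall in denervated mouse muscle, was near the floor on both of its probes. They read 8.25 to 8.39 and 8.24 to 8.31 in controls and 8.22 to 8.31 and 8.24 to 8.30 in p21 muscles, below the median of the table in all but 1 reading. Their changes were −0.04 ± 0.03 and −0.01 ± 0.02 (adjusted p = 0.48 and 0.86). The brighter Hdac9 probe was lower in the p21 array of all 4 replicate numbers and the other in 2 of 4. No change of Hdac9 was detected on these dim probes, which does not show that there was none. Within the class, the groups differed in Hdac4 minus Hdac5 by −0.10 ± 0.07 (exact permutation p = 0.200), Hdac4 minus Hdac9 by −0.25 ± 0.07 (p = 0.0571, exact permutation test) and Hdac5 minus Hdac9 by −0.14 ± 0.08 (exact permutation p = 0.143). Adjusted over the 6 pairs these were 0.240, 0.171 and 0.214, so a difference between the changes of Hdac4 and Hdac5 was not established. Without control replicate 4, Hdac4 minus Hdac5 was −0.04. Changes near the floor are compressed, so the differences that involve Hdac9 mostly restate the changes of Hdac4 and Hdac5. With arrays paired by replicate number, all 3 differences were negative in 4 of 4 numbers, and Hdac4 minus Hdac5 ran from −0.19 to −0.05. An exact sign-flip test over 4 numbers gave p = 0.125 for each, the smallest it can give (0.150 adjusted over the 6 pairs).

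The promoters of Hdac4, the class member that fell, and of its close relative Hdac5 are shown because class IIa enzymes are known to act on genes through MEF2 sites. The windows are RefSeq sequence of GRCm38.p6, 300 bases around the annotated gene start, 5′ to 3′ on the gene's strand. Hdac4 lies at chr1:92180292-92180591, minus strand, and Hdac5 at chr11:102230123-102230422, minus strand. Capitals mark matches on either strand to MEF2 or to the motifs CAGCTG and CACGTG (E-boxes, the sites of myogenin-type and of other factors) and TGTGGT (RUNX).
Hdac4: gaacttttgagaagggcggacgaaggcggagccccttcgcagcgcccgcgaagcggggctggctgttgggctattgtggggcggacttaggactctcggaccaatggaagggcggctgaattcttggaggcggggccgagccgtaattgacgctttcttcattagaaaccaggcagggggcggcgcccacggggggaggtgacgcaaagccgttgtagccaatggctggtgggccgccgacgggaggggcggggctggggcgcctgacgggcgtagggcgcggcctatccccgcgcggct
Hdac5: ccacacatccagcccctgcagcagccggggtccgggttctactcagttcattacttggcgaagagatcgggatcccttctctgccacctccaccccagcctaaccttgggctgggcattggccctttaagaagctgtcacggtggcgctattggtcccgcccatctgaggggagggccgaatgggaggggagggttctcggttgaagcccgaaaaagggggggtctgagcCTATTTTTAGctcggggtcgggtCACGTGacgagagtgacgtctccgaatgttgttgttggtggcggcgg
Hdac5 held 1 MEF2 match, CTATTTTTAG, and 1 CACGTG, whereas Hdac4 held no match to any of the 4 motifs. Of 32851 promoter windows of the same length, 3.19% held MEF2, 7.15% CACGTG, 16.3% CAGCTG and 16.8% TGTGGT. These letters are a description of the windows and do not show binding.

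Dach2, the repressor that stands between Hdac4 and Myog in the denervation pathway, was not read above the dimmer part of the table. Its probe read 8.29, 8.27, 8.27 and 8.21 in controls and 8.24, 8.35, 8.31 and 8.31 in p21 muscles, all below the median of 8.39. The change was 0.04 ± 0.03 (95% interval −0.02 to 0.10, adjusted p = 0.44), and 0.28 with the floor subtracted (adjusted p = 0.46). No change of Dach2 was detected on this dim probe, which does not show that there was none.

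Runx1, a transcription factor of blood cells that denervated fibers also induce, rose. Its probe (ILMN_2589107) read 8.36, 8.36, 8.43 and 8.31 in controls, around the median of the table, and 8.61, 8.73, 8.63 and 8.58 in p21 muscles. The highest control lay below the lowest p21 muscle. The change was 0.27 ± 0.04 (95% interval 0.17 to 0.37, 1.20-fold, adjusted p = 0.0106, exact permutation p = 0.0286), and it passed under all 14 alternatives that could change it (adjusted p 0.0041 to 0.045). The size depends on the scale, because the control values lay only 0.24 above the floor. With the floor subtracted and an offset of 16 added, the change was 1.02 ± 0.16, or 2.03-fold. Macrophages also express Runx1, and in the same muscles 11 of 16 macrophage markers rose, with C1qb and C1qc at 1.46 and 1.49, while Itgam averaged below the median of the table (8.32 in controls and 8.42 in p21 muscles). Their part in the rise of Runx1 was not tested.

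Runx1 is transcribed from 2 promoters, and the array does not tell which was used. Their windows are shown because RUNX factors are known to act on this gene's own expression, at chr16:92826025-92826324 and chr16:92697280-92697579, both on the minus strand of GRCm38.p6 (RefSeq), 5′ to 3′, with the same motifs in capitals.
Runx1 first window: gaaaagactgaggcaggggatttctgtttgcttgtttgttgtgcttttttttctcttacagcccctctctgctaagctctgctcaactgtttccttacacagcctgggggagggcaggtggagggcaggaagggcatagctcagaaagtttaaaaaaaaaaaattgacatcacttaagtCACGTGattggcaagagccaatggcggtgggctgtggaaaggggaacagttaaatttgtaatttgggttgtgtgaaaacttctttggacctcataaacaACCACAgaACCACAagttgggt
Runx1 second window: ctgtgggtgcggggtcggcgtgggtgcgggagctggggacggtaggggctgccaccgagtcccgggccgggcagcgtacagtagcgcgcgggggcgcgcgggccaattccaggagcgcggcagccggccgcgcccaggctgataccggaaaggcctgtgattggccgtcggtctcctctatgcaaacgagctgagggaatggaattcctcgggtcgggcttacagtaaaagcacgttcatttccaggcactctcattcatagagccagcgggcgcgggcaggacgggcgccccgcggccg
The first window held 2 RUNX matches near its end, both read as TGTGGT on the opposite strand, and 1 CACGTG, and the second held none of the 4 motifs. Promoter windows were found for 8 of the 9 genes, and there was none for Ncam1. Among the other genes, Gadd45b and Gadd45g each held 1 CACGTG, Gadd45g and both windows of Hdac9 1 CAGCTG, and 1 of 2 Dach2 windows 1 TGTGGT. The Gadd45a window held none of the 4.

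Ncam1, the neural cell adhesion molecule, had the largest change of the 9 genes. Its brighter probe (ILMN_2722864, annotated to NM_010875) read 9.02, 9.32, 9.35 and 9.37 in controls and 10.64, 10.72, 10.26 and 10.37 in p21 muscles. All p21 muscles lay well above all controls, and control replicate 1 lay apart below the other controls. The rise was 1.23 ± 0.12 (95% interval 0.98 to 1.49, 2.35-fold, adjusted p = 0.000605, exact permutation p = 0.0286), which ranked 52 among the rises of all 25697 probes. It passed under all 14 alternatives that could change it, with changes of 1.15 to 1.76 and adjusted p of 0.00011 to 0.0079.

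The second Ncam1 probe (ILMN_3102825, annotated to NM_001081445) was dimmer and had a smaller change. It read 8.52, 8.59, 8.41 and 8.57 in controls and 8.76, 8.88, 8.50 and 8.71 in p21 muscles, where p21 replicate 3 fell among the controls. The change was 0.19 ± 0.07 (adjusted p = 0.140), 0.57 with the floor subtracted, and it was higher in the p21 array of all 4 replicate numbers. With the replicate block (adjusted p = 0.031) or without p21 replicate 3 (adjusted p = 0.031) it passed. The change of the brighter probe exceeded that of the dimmer one by 1.04 ± 0.10, with no overlap between groups. Exact permutation p was 0.0286, the smallest that 4 against 4 arrays allow, and 0.200 adjusted over 7 probe pairs. A pair that alone reaches that smallest p cannot pass after this adjustment. Whether the probes read different splice forms was not tested.

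Cells other than fibers also express Ncam1, among them non-myelinating Schwann cells, natural killer cells and satellite cells. None of 9 Schwann cell and nerve markers passed in limma (3 at unadjusted p under 0.05, and 1 higher and 2 lower with the replicate block). Their summed intensity above the floor was 3209 to 4367 in controls and 2661 to 3823 in p21 muscles, and S100b, Gfap, Cdh19 and Nefl lay below the median of the table. None of 10 T and natural killer cell markers passed (2 at unadjusted p under 0.05, 4 higher with the block), with sums of 830 to 1776 and 1074 to 3169, and Ncr1, Gzma, Gzmb, Cd4 and Cd8a lay below that median. Of 10 satellite cell and myoblast markers 4 rose, namely Vcam1, Itga7, Megf10 and Mymk, with sums of 19343 to 21455 and 22075 to 24911. The stem cell markers Pax7, Myf5 and Calcr lay below the median of the table. The part of these cells in the rise of Ncam1 was not tested.

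**Figure D3:**
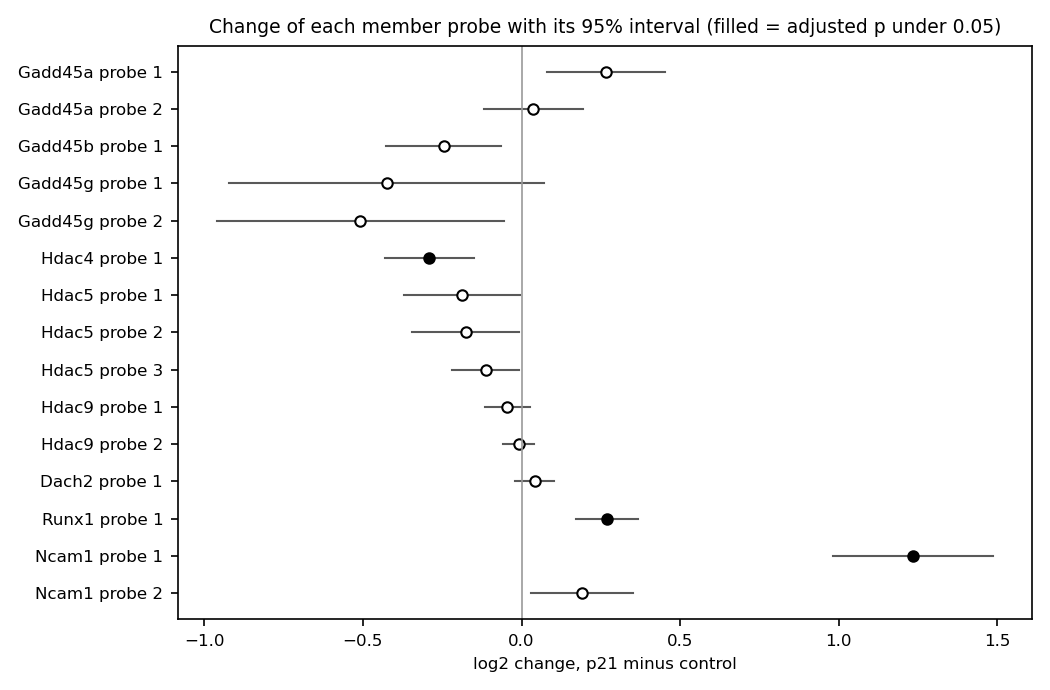
Log2 change (x axis, p21 minus control) of the 15 probes with the 95% interval of the limma fit, where filled points passed adjusted p 0.05. The interval of the brighter Ncam1 probe runs from 0.98 to 1.49, all Hdac5 intervals end just below 0, and those of Hdac9 and Dach2 span 0.

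By likeness over the 8 arrays, the genes nearest to the brighter Ncam1 probe were Tnni1, the slow troponin I (Pearson r 0.991), Myog (0.990) and the tubulin gene Tubb6 (0.989). These rose by 1.38 ± 0.11, 1.27 ± 0.09 and 1.54 ± 0.12. Nearest to Runx1 were Jpt2 (r 0.992), the glycyl-tRNA synthetase gene Gars (0.983) and Rnf44 (0.974). Jpt2 rose by 0.17 ± 0.04 and Gars by 0.27 ± 0.07, and Rnf44 had a change of 0.26 ± 0.08 (adjusted p = 0.082). Nearest to Hdac4 were Rgs5, a pericyte gene (r 0.984), Nudt11 (0.981) and Tmem80 (0.980), which fell by 0.43 ± 0.08, 0.23 ± 0.05 and 0.24 ± 0.05. In the same muscles 4 of 10 endothelial markers fell, and their part in the fall of Hdac4 was not tested. The groups lie apart in all these genes, so an r over these arrays mostly restates the difference between groups. Of 8925 genes brighter than the median, 319, 199 and 245 had r over 0.9 with Ncam1, Runx1 and Hdac4.

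Genes around the 9 were counted in lists, each gene by its brightest probe, beside 9.02% called over all 16593 genes (4.24% higher and 4.79% lower) and a median of −0.004. Among 9 measured partners of Gadd45 proteins, 1 rose and 1 fell (2 and 1 with the replicate block), and the median was −0.001. Prmt1, an arginine methyltransferase, rose by 0.34 ± 0.08 (adjusted p = 0.025), and the p38 kinase gene Mapk14 fell by 0.30 ± 0.08 (adjusted p = 0.038). Without control replicate 1, 2 or 3 or p21 replicate 4 neither passed, and Mapk14 was also lost without control replicate 4 or p21 replicate 1 or 3. Over all probes the calls numbered 2064 with all arrays, and 379, 391, 1032 and 159 where neither passed. Map3k4 and Pcna lay below the median of the table.

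None of the 8 other histone deacetylases passed in limma (1 at unadjusted p under 0.05, none with the replicate block), and the median was −0.04. Hdac7, the remaining class IIa enzyme, had a change of −0.06 ± 0.07 (adjusted p = 0.69), and Hdac3, which gives class IIa complexes their catalytic activity, −0.13 ± 0.08 (adjusted p = 0.41). The list ran from −0.13 to 0.22, the latter for Hdac1. Among 12 MEF2 factors, 14-3-3 adaptor genes and other partners of class IIa enzymes, none passed (4 at unadjusted p under 0.05), with a median of 0.01. That count depends on the setting, with 2 higher and 1 lower under the replicate block, robust eBayes, bright probes alone or the floor subtracted, and 2 higher with array weights. Mef2d, a MEF2 factor of adult muscle, stood at −0.18 ± 0.05 (adjusted p = 0.052). Of the 2 probes of the adaptor gene Ywhab, 1 passed, but not the brighter one that was counted.

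Of 14 kinases and phosphatase subunits that act on class IIa enzymes, 3 fell (21.4%) and none rose, with a median of 0.01. The CaMKII subunit genes Camk2a and Camk2g fell by 0.66 ± 0.12 and 0.61 ± 0.14 (adjusted p = 0.0156 and 0.025), or 1.58-fold and 1.52-fold. Prkaa2, a catalytic subunit of AMPK, fell by 0.52 ± 0.10 (adjusted p = 0.0163). All 3 probes of Camk2a and both probes of Camk2g and of Prkaa2 passed. Camk2b, another subunit gene of the same kinase, had a change of 0.02 ± 0.12 (adjusted p = 0.96). Without control replicate 1 or p21 replicate 4 none of the 3 passed, and Camk2g was also lost without control replicate 2 or 3. Where none of the 3 passed, the calls over all probes numbered 379 and 159, against 2064 with all arrays.

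None of 9 Dach relatives, Eya coactivators and sine oculis homeobox factors passed (2 at unadjusted p under 0.05, 1 higher with the block), with a median of −0.01, and Dach1 lay below the median of the table. None of 7 Runx relatives and core-binding partners passed (2 at unadjusted p under 0.05, none with the block, 1 higher without the trend), with a median of 0.04. Cbfb, the partner that Runx1 needs to bind DNA firmly, had a change of 0.19 ± 0.08 (adjusted p = 0.162) with no overlap between groups. Among 12 Ncam partners and enzymes of its polysialylation, 1 rose (2 with the replicate block), and the median was 0.03. It was St8sia2, the polysialyltransferase of developing tissue, with means of 8.26 ± 0.04 (SD, n = 4) for controls and 8.45 ± 0.04 for p21 muscles, a rise of 0.19 ± 0.03 (adjusted p = 0.0097 in limma). St8sia2 lay below the median of the table on average and passed in every alternative that kept it. Its relative St8sia4 had a change of 0.19 ± 0.08 and did not pass (adjusted p = 0.20).

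Genes listed here as induced in denervated muscle were counted last, a listing that was not itself tested. Of 21 measured, 11 rose and 1 fell (57.1% called), with a median of 0.21. With the replicate block 12 rose and 3 fell, and over bright probes alone 11 rose and 3 fell. Chrng and Chrna1, acetylcholine receptor subunits, rose by 2.17 ± 0.12 and 1.64 ± 0.11, Myog, the target of Dach2 repression, by 1.27 ± 0.09, and Myl4, the embryonic light chain, by 2.10 ± 0.22 (adjusted p from 1.4e-05 to 0.0014). Of the 3 probes of Chrna1, 2 passed. The ubiquitin ligase genes of atrophy did not rise. Fbxo32, or atrogin-1, fell by 0.81 ± 0.22 (adjusted p = 0.048), and Trim63, or MuRF1, had a change of −0.48 ± 0.14 (adjusted p = 0.060). These 2 were picked after their values were seen. All 3 probes of Fbxo32 passed with all arrays. The call of its brightest probe, the one given, was lost without any 1 of the 4 control replicates or p21 replicate 4. It was also lost without the trend and with the floor subtracted. Without p21 replicate 4 the rises numbered 7, and the calls over all probes fell from 2064 to 159. The list was assembled with earlier results of these data known. In the same muscles 11 of 16 macrophage markers and 4 of 10 satellite cell and myoblast markers rose. The part of these cells was not tested.

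**Figure D4:**
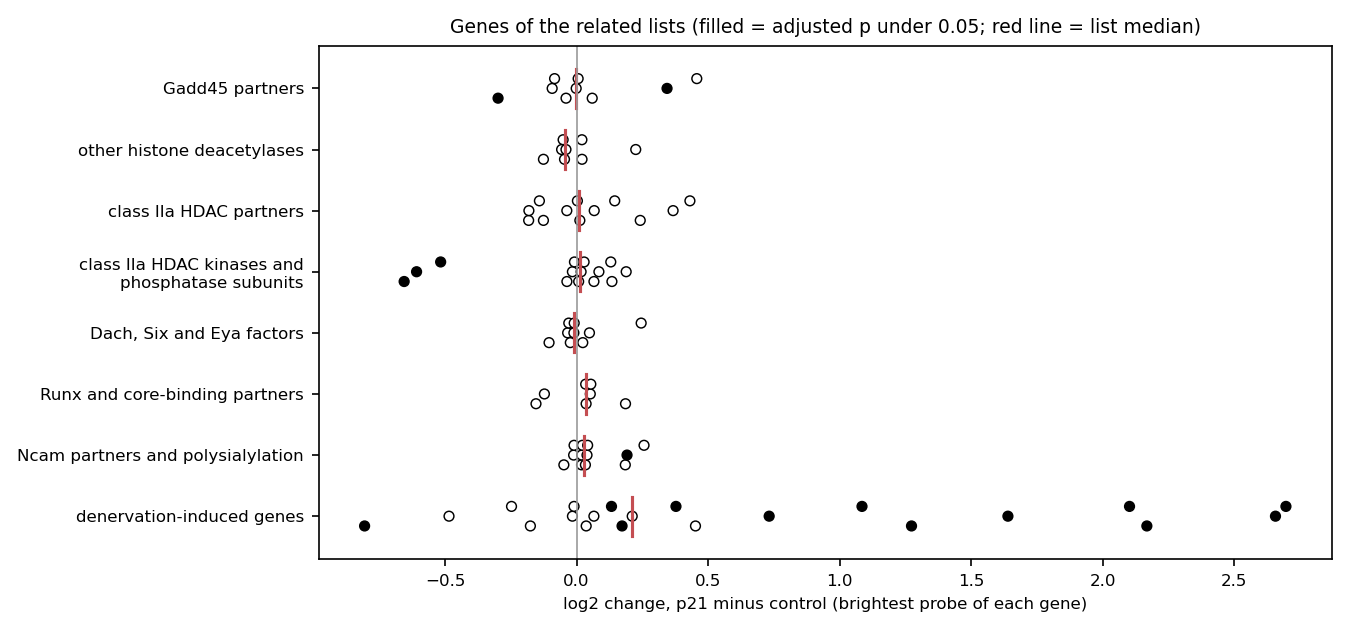
Log2 change (x axis, p21 minus control) of the genes of 8 related lists, each by its brightest probe, where filled points passed adjusted p 0.05 and red lines are list medians. The genes listed as denervation-induced spread from −0.81 to 2.70, and Camk2a, Camk2g and Prkaa2 stand apart below the other kinases at −0.66 to −0.52.

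The calls of the members differed in how far they held across settings. Ncam1, on its brighter probe, and Runx1 passed with all arrays and with each array left out in turn, whereas Hdac4 passed in 10 of 14 alternatives and the brighter Gadd45a probe in 2. Centring each array and repeating the quantile normalization are not counted, because the table was already brought to one distribution and they gave the same values.

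**Figure D5:**
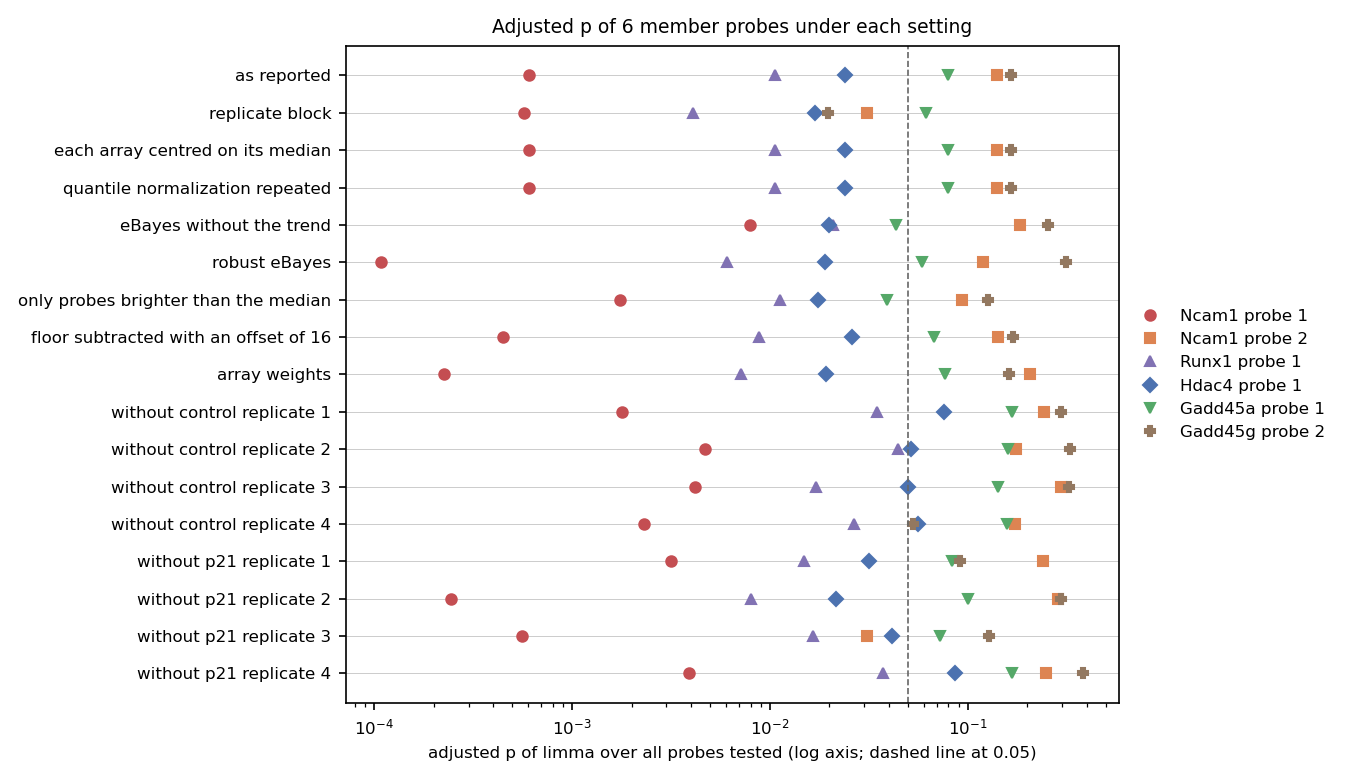
Adjusted p of limma (x axis, log scale, dashed line at 0.05) for 6 probes as reported and under 16 other settings, of which centring and repeated quantile normalization only restate the reported fit. The brighter Ncam1 probe and Runx1 stay to the left of the line throughout, Hdac4 crosses it when control replicate 1, 2 or 4 or p21 replicate 4 is left out, and the second Gadd45g probe lies left of it with the replicate block alone.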

How the data were processed

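Total RNA of the tibialis anterior was amplified, labelled with biotin and hybridised to 1-colour Illumina arrays, per the labels' protocols. The deposited values are log2 intensities in a table of 25697 probes. The sources used here do not name the array software, the background correction or the normalization. Once sorted, the columns matched to within 0.00073, so the authors deposited a table already brought to one distribution. Probes were not filtered, and detection calls were not used. Dim probes lie near a floor of 8.13, which compresses their changes.

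Symbols came from the platform annotation (23978 probes with 1 symbol, 0 with several, 1719 unnamed here), and all 15 member probes matched their RefSeq gene by Entrez number. The p21 and control arrays were fitted in limma 3.58.1 under R 4.3.3 (lmFit, eBayes with an intensity trend, two-sided), adjusted over all probes. Single probes and within-array differences were tested by exact two-sided permutation over 70 regroupings. Intervals are 95% intervals of the fit. Members and lists were chosen with earlier results of these data known. The text names every member probe, up to 4 called genes per list and the 3 genes most like each called member. Other genes given from the lists for their role were picked after their values were seen.

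The replicate numbers were read as pairs from the data, since deviations from the group means correlated for each number across the groups, at 0.483, 0.264, 0.212 and 0.181, each over 0.1. Control replicate 3 correlated more with p21 replicate 4 (0.448), so the pairing is uncertain. In data simulated with 4 arrays per group and 25697 probes, limma called 70 of 100 probes changed by 0.5, 90 of 100 changed by 1 and 9 of 25497 unchanged, with changed probes drawn from those brighter than the median. The simulated noise was independent between probes, without effects shared across an array or a pair. The median size of change of the member probes, 0.19, was smaller than the sizes simulated. These rates therefore need not hold for the members. The number of arrays limits the precision.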

Additional observations from a re-analysis of the deposited data

Results flagged for a closer look

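Control replicate 1 read 9.02 on the brighter Ncam1 probe, below the other controls at 9.32 to 9.37, and the gap took up 0.844 of the group's range, past the limit of Dixon's test for 4 samples. Of 30 groups of 4 examined over the 15 probes, this was the 1 set apart in this way, where chance sets apart about 1 in 20. Without that array the rise of Ncam1 was 1.15 with adjusted p = 0.0018 in limma.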

How the results depend on the processing

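Centring and repeated quantile normalization changed nothing, as the table was already normalized, and are not counted. Of 207 other recomputed changes of member probes, 197 kept their direction and side of the threshold, 4 lost the call (all Hdac4), 5 gained it and 1 turned, the dimmer Hdac9 probe, at 0.00063 without control replicate 1 (range with 1 array left out −0.021 to 0.00063). The count of member probes past the threshold was 3, then 5 with the replicate block (12.4% of all probes) and 2 to 4 with an array left out. Over all probes it was 2064, then 3186 with the block and 159 to 2162 with an array left out. The block changed no member call but those of the second Gadd45g and Ncam1 probes. By the mean of a gene's probes the median of the partners of class IIa enzymes turned to −0.017 from 0.0078. The cause was not tested. The family differences kept their sign with any array left out and by gene means, but not their size (Hdac4 minus Hdac5 −0.14 to −0.04, Gadd45b minus Gadd45g 0.10 to 0.38). Their pairing by number and the list counts by setting were added after seeing the data. Nearness to the floor limits Hdac9 and Dach2.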
